A study of Mus musculus with 143 samples.

Results

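The comparison described here set 8 single metaphase II (MII) eggs against 8 single germinal vesicle (GV) oocytes, all from control mice, in poly(A) RNA sequencing. These 16 libraries were taken by title and stage label from the 143 samples of a mouse oocyte series on the nuclear RNA exosome, the complex that trims and degrades RNA. The series also holds oocytes that lack the exosome ribonucleases DIS3 or EXOSC10, other library types and chromatin profiles. The genotype of all 16 libraries is given as control, with no strain, age or further allele in the labels, and the mutants they were compared with were made by CRISPR/Cas9. GV oocytes are fully grown oocytes held in meiotic prophase with an intact nucleus. They came from ovaries and were kept ex vivo in M2 medium, and another control group of 8 (GV3h) was cultured for 3 h. MII eggs have completed the first division and wait for the sperm, and they were taken from the oviducts of mice given a superovulation treatment. Stage, hormone treatment and site of collection therefore cannot be told apart. The labels do not say which oocytes share a mouse, so the tests measure the spread between these single cells.

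A fully grown oocyte carries a store of messages made during growth, and its genome is silent from then until the embryo forms. Meiotic maturation removes part of this store: deadenylases of the CCR4-NOT complex, brought to messages by adaptors such as BTG4, shorten poly(A) tails, and decapping and exonucleases follow. Other messages, called dormant, are held with short tails in the GV oocyte and gain longer tails through CPEB1 and DAZL as they enter translation. Because these libraries were made from RNA caught on oligo-dT, a message with a shorter tail and a message that is gone cannot be told apart, and a message with a longer tail can be caught better. Every level below is a level of captured poly(A) RNA.

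Gene counts numbered 4843964 to 9830881 per GV library and 9731464 to 11784288 per MII library. The synthetic ERCC RNAs, added in the same amount to each lysate, gave 34277 to 84858 counts in GV and 186262 to 273104 in MII. Genes with a count numbered 18661 to 21431 in GV and 16772 to 17412 in MII. The oocyte markers (10 of 10 present, among them Zp3, Gdf9 and Mos) summed to 14700 to 21000 counts per 1000000 gene counts (CPM) in GV and 12900 to 15800 in MII. Markers of granulosa or cumulus cells summed to 55.4 to 182 CPM in GV and 65.3 to 177 in MII with Ptx3 at 0. The largest of these was Cyp19a1, at 36.8 CPM in GV and 54.0 in MII (means). Of 12 granulosa or cumulus markers tested with TMM factors (library scaling, below), 5 were lower in MII and 1 higher, with a median log2 fold change of -0.89. Markers of theca, stroma and vessel summed to 59.9 to 97.3 and 70.9 to 110, mostly Pecam1, with Cyp17a1 and Cdh5 at 0. Oviduct epithelium markers reached 11.9 CPM at most and blood markers 0.548, and the part of these cells in the results was not tested. MII eggs 6, 7 and 8 stood apart from eggs 1 to 5: correlations of log2(CPM + 1) across genes were 0.948 to 0.964 between these sets and 0.960 to 0.970 within them. GV oocytes 2, 3 and 6 stood apart in a like way from 4, 5, 7 and 8 (0.961 to 0.974 between). The labels name no batch, so for many of the results that rest on either set the values without it are given.

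The first question was how much poly(A) RNA was caught per cell. GV oocytes held 108 to 162 gene counts per ERCC count (137 ± 16.2, SD, n = 8), and MII eggs held 42.2 to 52.2 (46 ± 3.43, n = 8). The groups did not overlap, and the lowest GV oocyte held more than the highest MII egg. On the log2 scale the mean ratio fell by 1.57, which leaves 33.6% of the GV level (2-sided exact permutation test, p 0.000155, the smallest that the 12870 regroupings allow). The log2 difference was -1.56 without MII eggs 6 to 8, -1.59 without eggs 1 to 5 and -1.498 without GV oocytes 2, 3 and 6. With the TMM size of the ERCC counts in place of their sum, the ratio fell by 1.21 and 43.1% was left. Over 29 ERCC RNAs with a mean of at least 100 counts, the share of each RNA in the ERCC total differed by a median of -0.065 on the log2 scale between MII and GV.

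**Figure D1:**
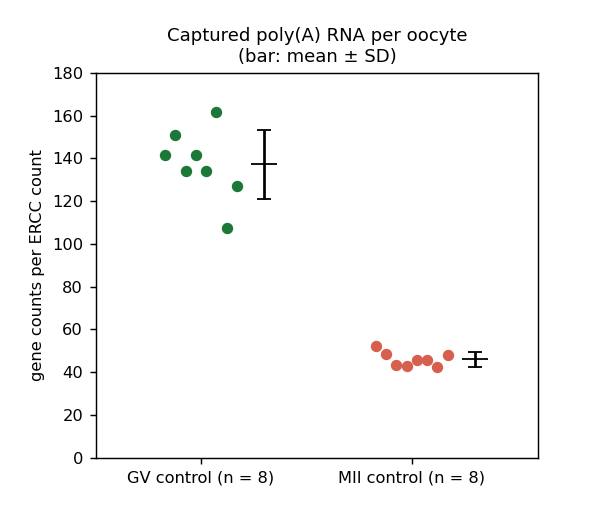
Gene counts per ERCC count (y axis) in each of 8 GV control and 8 MII control libraries (points), with the mean and SD beside them (bars). All 8 MII eggs lie between 42.2 and 52.2, below the lowest GV oocyte at 108.

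Each gene was then read on a pair of scales. Library scaling asks which messages take a larger or smaller share of the RNA of the egg, with that share adjusted by TMM factors. ERCC scaling divides by the ERCC sum and asks how much of the GV level of a message is left per cell. Of 17389 genes tested with edgeR's quasi-likelihood test, 10179 (58.5%) passed an adjusted p of 0.05 under library scaling, 3950 higher in MII (22.7%) and 6229 lower (35.8%), with a median log2 fold change of -0.27. This excess of lower genes was smaller in the fit of only the 16 control libraries (4099 higher and 4543 lower of 13459, median -0.061) and when their counts were also summed (3675 and 4090, median -0.033). Under ERCC scaling 15275 passed (87.8%), 15217 lower (87.5%) and 58 higher (0.334%), with a median of 23% left. In TMM-scaled CPM, the 8 and 8 libraries did not overlap for 17.6% of genes in the lower and 10.8% in the higher direction. Per ERCC count these values were 57.0% and 0.0978%. At least 50% of the GV level was left for 2861 genes (16.5%), and under 12.5% for 5249 (30.2%). With TMM factors on the ERCC counts every ERCC-scaled value lay higher, with the median log2 fold change over all genes at -1.76 in place of -2.12. A message that falls under ERCC scaling can thus hold or gain share, and the lists below are set against these values. Where a list or gene is said below to have risen or fallen with no scale named, the share under library scaling is meant. From here on the CPM of a single gene are TMM-scaled, while summed CPM of lists divide by all gene counts without TMM factors. The change of a gene between stages can differ between these kinds of CPM. Under ERCC scaling the lists held no member that was called higher, apart from 3 mitochondrially encoded genes, the spliceosome gene Cdc5l and Zfp990, the last picked after its values were seen. Protein-coding genes had a median of 23.7% left and long noncoding RNA genes 18.2%, with 542 of 1393 of the latter lower and 161 higher under library scaling.

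**Figure D2:**
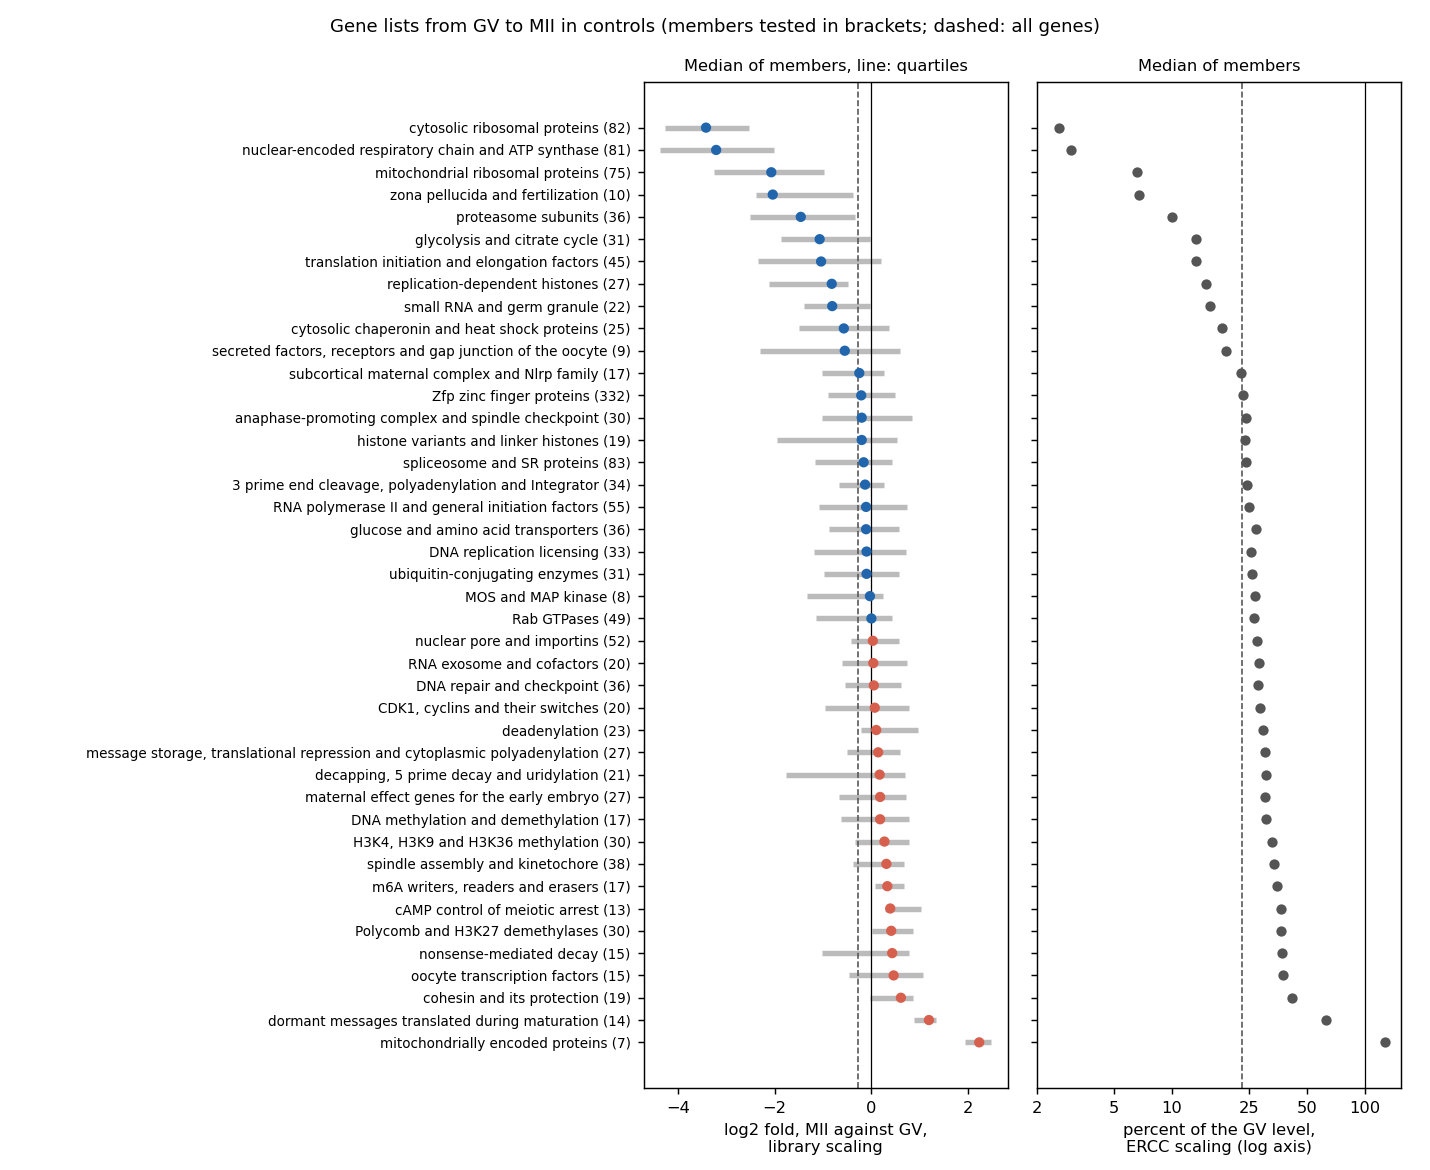
Median log2 fold change under library scaling (left panel, grey lines span the quartiles) and median percent of the GV level under ERCC scaling (right panel, log axis) for 42 gene lists, with all genes as a dashed line. Cytosolic ribosomal proteins lie lowest at -3.42 and 2.60%, and dormant messages and mitochondrially encoded genes lie highest.

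The messages for the ribosome and for the respiratory chain had the lowest medians of the 42 lists. Of 87 cytosolic ribosomal protein genes, 82 passed the filter on low counts. Of these 78 fell (95.1%) and 1 rose (1.22%) under library scaling, against 35.8% and 22.7% of all genes, with a median log2 fold change of -3.42. For 66 members the CPM of every egg lay below that of every GV oocyte, against 17.6% of all genes. Under ERCC scaling all 82 were lower, with a median of 2.60% left and 71 members under 12.5%. The list summed to 2780 to 3529 CPM in GV (median 3272) and to 641.7 to 769.3 in MII (median 655.1), and the groups lay far apart. GV3h oocytes summed to 2094 to 2682, between them and below every GV oocyte. Rpl39, a protein of the large subunit, stood at 70.9, 78.9 and 83.3 CPM in GV (lowest, median, highest) and at 0.205, 1.07 and 2.72 in MII. Every egg was thus far under every GV oocyte, and Rpl39 fell by 5.86 on the log2 scale (SE 0.44, edgeR adjusted p 1.84e-19) with 0.472% left. Rpl41 fell by 3.48 (SE 0.38, edgeR adjusted p 1.49e-12) with log2 fold changes of -4.39 without MII eggs 6 to 8, which held more of it than eggs 1 to 5, and -2.65 without eggs 1 to 5. Rplp0, a stalk protein, fell by 2.82 (SE 0.20, edgeR adjusted p 1.25e-20). Rpl15, picked after its values were seen, stood at 29.7 CPM in GV and 28.9 in MII (medians, log2 fold change -0.02, adjusted p 0.92). The member that rose was Rps27l, a close relative of Rps27 that is known as a p53 target: it went from 87.2 to 148 CPM in GV to 298 to 376 in MII, with no overlap (log2 fold change 1.42, SE 0.20, edgeR adjusted p 5.22e-09) and 74.4% left. This ERCC-scaled fall of Rps27l did not pass with TMM factors on the ERCC counts (95.3%, adjusted p 0.648). Ribosomal protein genes have many processed pseudogenes, so reads shared with these copies can be lost or split, which makes their absolute counts uncertain.

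Cytosolic ribosomal protein messages are known for a terminal oligopyrimidine start, a C followed by a run of C and T at the transcript's first bases, which ties their translation to growth signals. The first RefSeq start site (GRCm38.p6, the assembly of the mm10 build that the submitters' processing notes name) was searched from 10 bases before to 15 bases from the start on, in sense, for a C followed by at least 5 bases that are C or T. A start site was found for 62 of the 82 members tested, and 31 of these held such a run, against 18.5% of 27025 genes with a start site. The same run on the other strand stood in 3.23% of the members and 20.5% of all genes. The exact letters CTTTC stood in 22.6% of the members and 3.06% of all genes, and the reverse complement GAAAG in 1.61% and 2.86%. Members with a run (31) had a median log2 fold change of -3.41 and 2.61% left, and those without (31) -3.30 and 2.79%. Windows of 4 members follow, the steepest fall among members with at least 10 CPM in a stage and no overlap, the member that rose and 2 fixed examples, with the run in capitals and written 5′ to 3′ on the gene's strand. Each covers the promoter's end and the first exon's start.
Rpl39 (chrX:37085208-37085232, minus strand): gctccgcctctagcgaCTTCTTCTa
Rps27l (chr9:66946076-66946100, plus strand): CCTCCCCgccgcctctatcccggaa
Rplp0 (chr5:115559457-115559481, plus strand): cgggtttcgaggaccgcctggttct
Rpl41 (chr10:128549154-128549178, minus strand): gggccggctcggaagtgacgacacc
A run was counted anywhere in the window, so it need not lie in the transcript. That of Rpl39 lies after the annotated start, that of Rps27l lies wholly before it, and neither Rplp0 nor Rpl41 held one.

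Energy genes split by the genome that encodes them. Of 81 nuclear genes for the respiratory chain and ATP synthase, 74 fell (91.4%) and 3 rose (3.7%) under library scaling, against 35.8% and 22.7% of all genes. The median log2 fold change was -3.21, with 3.00% left under ERCC scaling, where all 81 were lower. Their sum went from 6386 to 8263 CPM in GV to 1365 to 1816 in MII. Atp5o, a stalk subunit of ATP synthase, stood at 89.8, 116 and 144 CPM in GV and at 0.307, 1.46 and 2.91 in MII, so that even the highest egg was far below the lowest GV oocyte. It fell by 6.18 (SE 0.36, edgeR adjusted p 5.64e-25) with 0.376% left. Ndufa10, of complex I, rose from 100.1 to 132 CPM in GV to 174 to 230 in MII (log2 fold change 0.89, SE 0.13, edgeR adjusted p 4.52e-09), and 51.0% was left. Atp5b, the catalytic subunit of ATP synthase, rose as well (0.61, SE 0.12, edgeR adjusted p 7.84e-06), from 187 to 222 CPM in GV. MII eggs 6 to 8 held 229 to 253 CPM of Atp5b and eggs 1 to 5 held 322 to 434, and without eggs 1 to 5 the rise was 0.20 with adjusted p 0.261. Ndufa4, tied to complex IV, was split the other way, with 37.4 to 57.4 CPM in eggs 1 to 5 and 154 to 256 in eggs 6 to 8, against 152 to 207 in GV. Its log2 fold change was -0.64 (edgeR adjusted p 0.0205), -1.84 without eggs 6 to 8 and 0.32 (adjusted p 0.238) without eggs 1 to 5. Leaving out any 1 of eggs 1 to 5 also ended this call (-0.54 to -0.51, adjusted p 0.056 to 0.0642). The call was lost as well in the fit of only the 16 control libraries (-0.58, adjusted p 0.152) and without GV oocytes 2, 3 and 6 (-0.51, adjusted p 0.125). Under ERCC scaling Ndufa4 was lower over all eggs (17.3% left), without eggs 6 to 8 (7.86%) and without eggs 1 to 5 (33%).

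The 13 genes of the mitochondrial genome code for respiratory chain subunits too, and 7 of them passed the filter. All 7 rose under library scaling, with a median log2 fold change of 2.23. Their sum went from 979.4 to 2034 CPM in GV to 4137 to 7557 in MII, with GV3h at 942.1 to 1821. mt-Nd2 stood at 67.2, 83.6 and 120 CPM in GV and at 519, 670 and 861 in MII, with no overlap, and rose by 2.91 on the log2 scale (SE 0.29, edgeR adjusted p 2.18e-14). Under ERCC scaling 3 were higher (mt-Nd2 at 207% of the GV level, mt-Nd5 at 156% and mt-Nd4 at 150%) and 1 was lower (mt-Co1 at 72.5%, edgeR adjusted p 0.0443). The 3 others, mt-Cytb (127%), mt-Nd1 (113%) and mt-Nd6 (95.6%), did not pass. With TMM factors on the ERCC counts 4 were higher and mt-Co1 was not called (92.7%, adjusted p 0.674), and without MII eggs 1 to 5 only mt-Nd2 was higher and none lower. Without GV oocytes 2, 3 and 6, 4 were higher, with mt-Cytb now called (149%, adjusted p 0.03) and mt-Co1 not (78.5%, adjusted p 0.187). The call on mt-Co1 was also lost without MII eggs 6 to 8 (69.7%, adjusted p 0.0564). For mt-Co1, 12 of the 16 fits that leave out 1 library also ended the call (adjusted p 0.051 to 0.114). Mitochondrial transcripts carry short tails added inside the organelle, and neighbouring genes of this genome overlap in RefSeq, so their counts can be shared. The names beyond mt-Nd2 and mt-Co1 were picked after their values were seen.

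Mitochondrial ribosomal proteins are made from nuclear genes, and 61 of 75 fell (81.3%) and 2 rose (2.67%), against 35.8% and 22.7% of all genes. Their median log2 fold change was -2.07, with 6.56% left. Mrpl52 fell by 5.88 (SE 0.35, edgeR adjusted p 3.91e-24, log2 fold change -6.48 without MII eggs 6 to 8 and -5.23 without eggs 1 to 5), and Mrpl3 rose by 1.25 (SE 0.14, edgeR adjusted p 1.56e-12). Proteasome subunits fell in 26 of 36 cases (72.2%, against 35.8% of all genes) and rose in 4 (11.1%, against 22.7%). Their median log2 fold change was -1.46, with 9.95% left. Psmb5, a catalytic subunit, went from 27.7 to 50.2 CPM in GV to 0 to 2.14 in MII and fell by 5.05 (SE 0.41, edgeR adjusted p 6.11e-18, log2 fold change -5.68 without MII eggs 1 to 5). Psmd1, a scaffold of the regulatory particle, rose from 160 to 214 CPM to 478 to 611 (log2 fold change 1.53, SE 0.11, edgeR adjusted p 9.45e-20), and its 79.7% left under ERCC scaling did not pass the test (adjusted p 0.054), though it did in the fit of the 16 control libraries (79.6%, adjusted p 0.00176). Psma7, picked after its values were seen, rose by 1.15. These genes of 1 complex, picked as extremes or after their values were seen, went in opposite directions with no overlap between eggs and oocytes. In the list as a whole, rises were rarer than among all genes.

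Translation factors fell in 27 of 45 cases (60.0%, against 35.8% of all genes), with a median log2 fold change of -1.04 and 13.3% left. They rose in 10 (22.2%, near the 22.7% of all genes). Eif3h, a subunit of the initiation factor that binds the small ribosomal subunit, fell by 3.98 (SE 0.31, edgeR adjusted p 1.22e-18), and Eif1, which guards start codon choice, rose by 1.27 (SE 0.15, edgeR adjusted p 3.24e-11). Glycolysis and citrate cycle enzymes fell in 20 of 31 (64.5%) and rose in 5 (16.1%), with a median of -1.07 and 13.3% left. Tpi1, triose phosphate isomerase, went from 96.6 to 143 CPM to 1.49 to 26.9 and fell by 3.76 (SE 0.39, edgeR adjusted p 2.28e-13, log2 fold change -4.42 without MII eggs 1 to 5), while Pdhb, of pyruvate dehydrogenase, rose by 1.19. Ldhb, the lactate dehydrogenase subunit of the oocyte, stood at 2432, 2799 and 3626 CPM in GV and at 612, 719 and 2201 in MII and fell by 1.52 (SE 0.22, edgeR adjusted p 1.03e-08). MII eggs 6 to 8 were the highest for Ldhb (1128 to 2201 CPM), and the log2 fold change was -0.90 without eggs 1 to 5. Chaperones fell in 17 of 25 and rose in 7 (median -0.57, 18.1% left). Hspa8, the constitutive heat shock protein, went from 52.4 to 151 CPM to 2.23 to 26.7 and fell by 3.36 (edgeR adjusted p 1.34e-10). The 3 highest eggs for Hspa8 were again 6 to 8, and the log2 fold change was -4.81 without them and -2.32 without eggs 1 to 5.

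**Figure D3:**
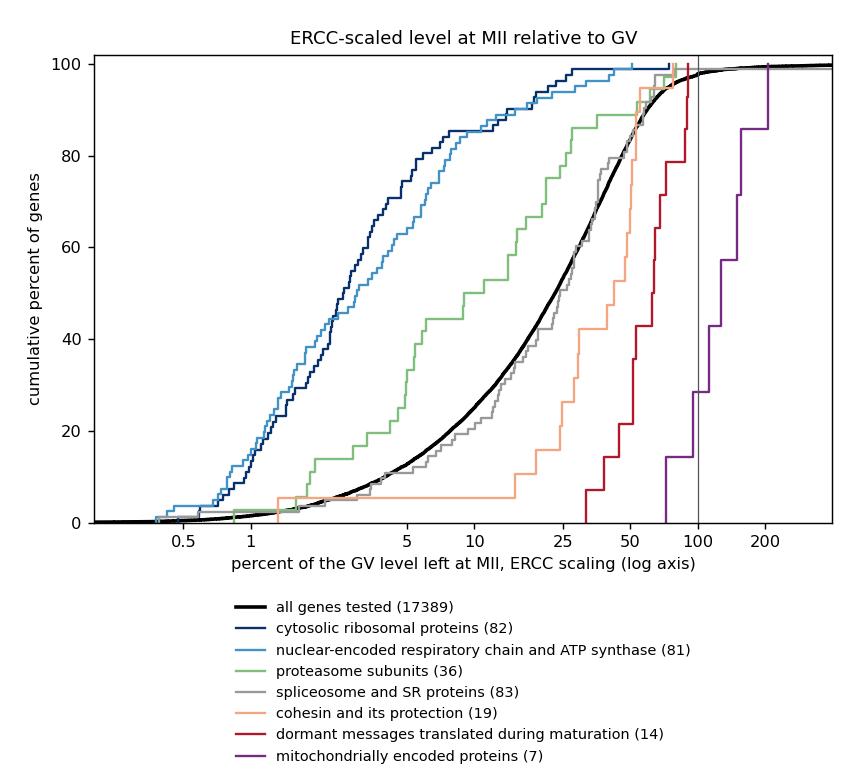
Cumulative share of members (y axis, percent) by the percent of the GV level left under ERCC scaling (x axis, log), for all genes tested and for named lists, with the number of members in the legend. The curves of cytosolic ribosomal proteins and of the respiratory chain lie far left of all genes, and that of the dormant messages lies right of it.

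Among messages for the egg coat and fertilization, 6 of 10 fell and 2 rose under library scaling, with a median log2 fold change of -2.04 and 6.78% left. Zp3, the coat glycoprotein, stood at 956, 1280 and 1599 CPM in GV and at 70.3, 98.1 and 149 in MII. Per 1000 ERCC counts Zp3 stood at 128.6 to 242.4 in GV and 2.565 to 5.804 in MII, so that the groups were far apart on both scales. It fell by 3.61 (SE 0.31, edgeR adjusted p 8.35e-17) with 2.22% left. Zp2 fell by 2.40 and Zp1 fell by 2.37 (edgeR adjusted p 3.52e-11 and 2.19e-13), with 5.11% and 5.25% left. Cd9, the egg membrane protein needed for fusion with sperm, fell by 2.69 (picked after its values were seen). Oosp1, a secreted oocyte protein, went the other way, from 1035 to 1950 CPM to 3409 to 4657, and rose by 1.42 (SE 0.16, edgeR adjusted p 1.18e-12). Its relative Oosp3 rose by 1.40, and Oosp2 fell by 2.08 (both picked after their values were seen). For Oosp1 75% was left under ERCC scaling (adjusted p 0.0236), a call that was lost with TMM factors on the ERCC counts (95.3%, adjusted p 0.696), without GV oocyte 1 (78.5%, adjusted p 0.0644) and without MII eggs 1 to 5 (80.7%, adjusted p 0.23).

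The signals by which the oocyte speaks to the cells around it split as well. Fgf8, a growth factor that acts on cumulus metabolism, fell by 4.29 (SE 0.33, edgeR adjusted p 1.39e-18), from 70.6 to 237 CPM to 3.59 to 10.99, with 1.44% left. Gja4, the connexin of the junctions between oocyte and granulosa cells, fell by 3.61 (SE 0.24, edgeR adjusted p 3.89e-22), from 977 to 1429 CPM to 66.8 to 129. Gdf9, the growth factor that drives cumulus expansion, stood at 3207, 3985 and 4281 TMM-scaled CPM in GV and at 5236, 5813 and 6609 in MII. With no overlap on this scale Gdf9 rose by 0.61 (SE 0.21, edgeR adjusted p 0.00879), and 41.8% was left per cell. Without TMM factors its mean went from 3950 CPM in GV to 4960 in MII, a smaller rise than that of the TMM-scaled means (3879 and 5929). Bmp15, its partner, rose by 0.60 (SE 0.17, edgeR adjusted p 0.00192) with 41.5% left, and the rise was 0.45 with adjusted p 0.0973 without MII eggs 1 to 5. In all 5 of 9 members of this list fell (55.6%, against 35.8% of all genes) and 3 rose (33.3%, against 22.7%). Besides Gdf9 and Bmp15, Kit rose (0.84), the receptor of the granulosa cell factor KITL, picked after its values were seen.

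The subcortical maternal complex is a protein assembly under the egg membrane that the early embryo needs, and values of its single messages are given here. With the Nlrp family, 7 of 17 members fell and 3 rose (41.2% and 17.6%, against 35.8% and 22.7% of all genes), with a median log2 fold change of -0.25. Under ERCC scaling all 17 were lower with a median of 22.9% left, so that both medians lay near those of all genes. The summed share of the list did fall, from 24470 to 32030 CPM in GV to 14810 to 17150 in MII, with no overlap. Per 1000 ERCC counts the sum stood at 2634 to 4836 in GV and 624.8 to 822.5 in MII. Of the list's members 5 rose under RLE factors, DESeq2, in the fit of the 16 control libraries and without MII eggs 6 to 8. Khdc3 stood at 1626, 1983 and 3087 CPM in GV and at 17.3, 33.6 and 234 in MII. MII eggs 6 to 8 held 99.1 to 234 CPM of it and eggs 1 to 5 held 17.3 to 35.3, all far under the GV oocytes. Khdc3 fell by 4.92 (SE 0.51, edgeR adjusted p 2.43e-13), with log2 fold changes of -6.31 without eggs 6 to 8 and -3.89 without eggs 1 to 5, and 0.889% was left (0.592% without egg 8). Ooep fell by 3.21 (SE 0.31, edgeR adjusted p 1.89e-14) and Tle6 fell by 2.23 (SE 0.30, edgeR adjusted p 8.7e-10), with 3.00% and 5.77% left. Padi6, an enzyme of the cytoplasmic lattices, fell by 0.81 (SE 0.20, edgeR adjusted p 0.000297) with 15.6% left. Nlrp5, the core of the complex, went from 1059 to 2101 CPM to 724 to 1518 with overlap and fell by 0.55 (SE 0.17, edgeR adjusted p 0.00445). This call on Nlrp5 was lost without MII eggs 1 to 5 (-0.31, adjusted p 0.291) and without GV oocytes 2, 3 and 6 (-0.15, adjusted p 0.521). Zbed3, the member that rose most, went from 2119 to 4011 CPM to 4275 to 6955 (log2 fold change 0.82, SE 0.12, edgeR adjusted p 8.77e-09), and 49.0% was left. Nlrp14, picked after its values were seen, fell by 1.03. Nlrp4 and Nlrp9 genes lie in families of close copies, and their counts are uncertain.

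Among maternal effect genes 10 of 27 fell, a share (37.0%) near the 35.8% of all genes, and 11 rose (40.7%, against 22.7% of all genes). Of the oocyte transcription factors 4 of 15 fell (26.7%) and 8 rose (53.3%). Under ERCC scaling 25 of 27 and 14 of 15 were lower, with medians of 30.4% and 37.8% left. Figla, which switches on the zona genes, went from 34.5 to 52.1 CPM to 0.583 to 6.75 and fell by 3.88 (SE 0.39, edgeR adjusted p 4.56e-14). Nobox, a homeobox factor of oocyte growth, fell by 1.55 (SE 0.13, edgeR adjusted p 6.92e-17), from 310 to 475 CPM to 90.3 to 179. Obox5, of a homeobox family with close copies, rose by 1.33 (SE 0.18, edgeR adjusted p 6.55e-10), from 538 to 1368 CPM to 1586 to 2450. Its 70.6% left under ERCC scaling (adjusted p 0.019) lost the call with TMM factors on the ERCC counts (87.7%, adjusted p 0.402), without GV oocyte 1 (79%, adjusted p 0.11) and without MII eggs 1 to 5 (79%, adjusted p 0.26). Dnmt1, the maintenance DNA methyltransferase, fell by 1.20 (SE 0.20, edgeR adjusted p 5.09e-07), from 1732 to 2450 CPM to 749 to 1126. Npm2, a histone chaperone of sperm chromatin, fell by 1.92 (picked after its values were seen). Dppa3, which guards maternal methylation, stood at 1359 to 2115 CPM in GV and 1237 to 1686 in MII and did not pass (log2 fold change -0.24, adjusted p 0.132), and 23.2% was left. H1foo, the oocyte linker histone, rose by 1.00 (SE 0.18, edgeR adjusted p 1.46e-06), from 3222 to 5378 CPM to 6377 to 10120, and 55.2% was left, a fall that did not pass without MII eggs 1 to 5 (62.0%, adjusted p 0.0604).

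Dormant messages, listed from textbook knowledge of maturation, took a larger share of the RNA of the egg. Of 14 members 13 rose under library scaling (92.9%, against 22.7% of all genes) and none fell, with a median log2 fold change of 1.19. Their sum went from 9298, 11150 and 12970 CPM in GV (lowest, median, highest) to 16430, 18190 and 23630 in MII. GV3h oocytes summed to 10560 to 12720, within the GV range. Under ERCC scaling 11 of the 14 were lower and none higher, with a median of 63.1% left and 11 members at or above 50%, against 16.5% of all genes at that level. The count of lower members was 5 with TMM factors on the ERCC counts and 7 without MII eggs 1 to 5, so it rests on the scaling and on those eggs. Members were listed for known tail lengthening, so the list is no independent evidence of its direction.

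Btg4, the adaptor that brings CCR4-NOT to messages, stood at 1219, 1675 and 1902 CPM in GV and at 4560, 5025 and 5764 in MII. Per 1000 ERCC counts it stood at 171.7, 223.9 and 258.7 in GV and at 171.8, 201.9 and 216.1 in MII, so the groups lay apart as shares and overlapped per cell. Btg4 rose by 1.69 under library scaling (SE 0.11, edgeR adjusted p 5.13e-22), and its 89.7% left did not pass the test (adjusted p 0.369). Dazl, an RNA-binding protein that drives translation in meiosis, stood at 516, 690 and 1251 CPM in GV and at 1897, 2263 and 3078 in MII and rose by 1.68 (SE 0.15, edgeR adjusted p 4.32e-16), with 87.5% left (adjusted p 0.361). Tex19.1 rose by 1.74 (SE 0.24, edgeR adjusted p 4.16e-09) with 90.7% left (adjusted p 0.679). Orc6, of the origin recognition complex, rose by 1.36 and Tpx2, a spindle assembly factor, by 0.46 (both picked after their values were seen). Mos, the kinase that starts the MAP kinase cascade, did not pass (log2 fold change 0.21, edgeR adjusted p 0.595). MII eggs 1 to 5 held 1008 to 1466 CPM of Mos and eggs 6 to 8 held 2560 to 3029, on either side of much of the GV range of 1257 to 2400. Plat, tissue plasminogen activator, showed the same eggs high, with 2628 to 4244 CPM in eggs 1 to 5 and 6522 to 7459 in eggs 6 to 8 against 1918 to 2969 in GV. Plat rose by 0.95 (SE 0.27, edgeR adjusted p 0.00156), and without eggs 6 to 8 by a value that did not pass (0.52, adjusted p 0.122). Under ERCC scaling 52.9% of Plat was left (adjusted p 0.00634), a call lost with TMM factors on the ERCC counts (67.8%, adjusted p 0.0889) and without eggs 1 to 5 (73.7%, adjusted p 0.346).

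**Figure D4:**
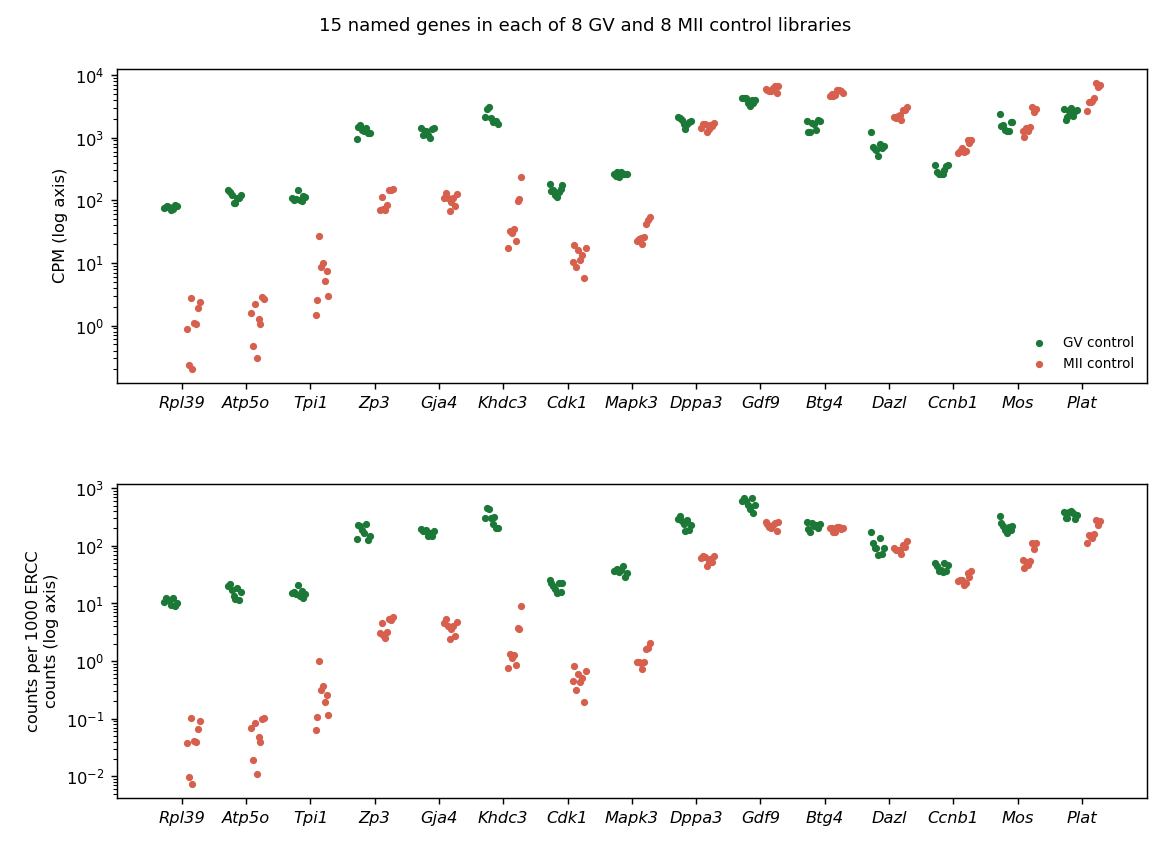
CPM (top, log axis) and counts per 1000 ERCC counts (bottom, log axis) of 15 named genes in each of 8 GV control (green) and 8 MII control (red) libraries, 1 point per library. Btg4 and Dazl lie higher in MII as shares and overlap per ERCC, while Zp3 and Rpl39 lie lower on both scales.

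The machinery of tail shortening and decay was itself uneven. Of 23 deadenylation genes 9 rose (39.1%, against 22.7% of all genes) and 4 fell (17.4%, against 35.8%), with a median log2 fold change of 0.10. Under ERCC scaling 20 of them were lower with 29.5% left. Cnot8 and Cnot7, the CAF1 deadenylases of CCR4-NOT, rose by 1.71 (SE 0.12, edgeR adjusted p 1.86e-20) and by 1.20 (SE 0.13, edgeR adjusted p 1.49e-12). Cnot7 went from 396 to 733 CPM to 1095 to 1612, and Cnot8 kept 91.0% of the GV level (adjusted p 0.502). Cnot7 kept 63.8% (adjusted p 0.000228), which did not pass with TMM factors on the ERCC counts (81.8%, adjusted p 0.0933) or without MII eggs 1 to 5 (73.7%, adjusted p 0.0683). Cnot6l, a CCR4 deadenylase, rose by 0.88, and Pan2 and Pan3, the other deadenylase pair, by 1.33 and 1.03, the last 3 picked after their values were seen. Cnot10, a structural subunit, fell by 0.96 (SE 0.16, edgeR adjusted p 3.37e-07). In the decapping and decay list 8 of 21 rose (38.1%, against 22.7% of all genes) and 9 fell (42.9%, against 35.8%). Under ERCC scaling 20 of this list were lower (30.9% left). Dcp1a, the decapping cofactor, rose by 0.88 (SE 0.13, edgeR adjusted p 4.23e-08), and Lsm4, of the ring that binds shortened tails, fell by 3.67 (SE 0.50, edgeR adjusted p 1.57e-09). Among exosome genes 7 of 20 rose (35%, against 22.7% of all genes) and 5 fell (25%, against 35.8%), and under ERCC scaling all 20 were lower with 28.3% left. Exosc5, of the core ring, fell by 4.01 (SE 0.30, edgeR adjusted p 1.23e-19) to 1.67% left, and Mphosph6, a nuclear cofactor, rose by 1.47 (SE 0.12, edgeR adjusted p 5.56e-17). The ribonuclease genes that the series removes in other mice stood, in these controls, at 12.7 CPM in GV and 10.3 in MII for Dis3 (medians, log2 fold change -0.44, adjusted p 0.404, but -1.75 with adjusted p 0.0214 without MII eggs 1 to 5), and Exosc10 rose by 0.60, a call lost without those eggs (0.35, adjusted p 0.205).

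In the list of message storage, translational repression and cytoplasmic polyadenylation, which also holds Dazl, 10 of 27 members rose (37.0%, against 22.7% of all genes) and 7 fell (25.9%, against 35.8%), and under ERCC scaling 26 of 27 were lower with 30.3% left. Cpeb1, which holds dormant messages and then lengthens their tails, fell by 1.46 (SE 0.15, edgeR adjusted p 1.1e-13), from 944 to 1250 CPM to 284 to 487, with 9.97% left. Zar1l fell by 2.84 (SE 0.19, edgeR adjusted p 2.5e-22) and Ybx2, which coats stored messages, fell by 1.93 (SE 0.18, edgeR adjusted p 9.1e-15). Zar1 fell by 0.48 (edgeR adjusted p 0.0499), a call that was lost under RLE factors, under DESeq2 and in 10 of the 16 fits that leave out 1 library. It was also lost without MII eggs 1 to 5 (-0.28, adjusted p 0.454) and without GV oocytes 2, 3 and 6 (-0.39, adjusted p 0.189). Small RNA and germ granule genes fell in 13 of 22 cases (59.1%, against 35.8% of all genes) and rose in 4 (18.2%, against 22.7%), with a median of -0.81 and 15.7% left. But 8 fell without GV oocytes 2, 3 and 6 and 7 without MII eggs 1 to 5. Mael fell by 2.92 (SE 0.29, edgeR adjusted p 2.42e-14), and Gtsf1, a partner of PIWI proteins, fell by 2.85 (picked after its values were seen). None of 17 m6A genes fell and 7 rose (41.2%, against 22.7% of all genes), with a median of 0.33. Under ERCC scaling 16 were lower (35.02% left). Wtap of the methyltransferase complex rose by 1.58 (SE 0.18, edgeR adjusted p 1.04e-11). In nonsense-mediated decay 8 of 15 rose (53.3%, against 22.7% of all genes) and 6 fell (40%, against 35.8%), and under ERCC scaling 14 were lower with 37.2% left. Magoh of the exon junction complex rose by 1.77 and Smg9 went down with a log2 fold change of -3.52 (edgeR adjusted p 4.64e-17 and 1.83e-10).

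Genes of the meiotic divisions moved both ways. Cohesin genes rose in 11 of 19 cases (57.9%, against 22.7% of all genes) and fell in 2 (10.5%, against 35.8%). Their median log2 fold change was 0.61, with 42.04% left. The median was 0.39 (36.6% left) without MII eggs 6 to 8 and 0.88 (49% left) without eggs 1 to 5, and 14 members rose without GV oocytes 2, 3 and 6. Stag1, a cohesin subunit, rose by 1.5 (SE 0.16, edgeR adjusted p 6.98e-13). Stag3, the subunit particular to meiosis in textbooks, was low at both stages, at 3.09 to 10.3 CPM in GV and 0 to 1.12 in MII. It fell by 4.45 (edgeR adjusted p 1.57e-10), with log2 fold changes of -5.34 without MII egg 1, -3.79 without eggs 6 to 8 and -8.71 without eggs 1 to 5, and was picked after its values were seen. Spindle and kinetochore genes rose in 17 of 38 cases (44.7%, against 22.7% of all genes) and fell in 11 (28.9%, against 35.8%), with a median of 0.31 and 33.6% left. Their summed CPM, without TMM factors, had a median of 9459 in GV and 8774 in MII. Aurkc, the Aurora kinase of meiosis, rose by 1.37 (SE 0.13, edgeR adjusted p 7.41e-15), Spc24 of the outer kinetochore fell by 2.95 (SE 0.23, edgeR adjusted p 1.29e-18), and Birc5, picked after its values were seen, fell by 1.94. Aurka fell by 0.39 (edgeR adjusted p 0.000521), a call lost without MII eggs 1 to 5 (-0.30, adjusted p 0.061).

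Partners in the cell cycle switch moved apart. Cdk1, the kinase of entry into M phase, stood at 112, 143 and 182 CPM in GV and at 5.71, 12.4 and 19.6 in MII and fell by 3.51 (SE 0.24, edgeR adjusted p 1.79e-21) with 2.45% left. Its cyclin Ccnb1 stood at 259, 290 and 363 CPM in GV and at 558, 642 and 932 in MII and rose by 1.22 (SE 0.16, edgeR adjusted p 5.87e-10). The CPM of neither gene overlapped between stages, and Cks1b, a small subunit that binds CDK1, rose by 1.74 (SE 0.16, edgeR adjusted p 2.21e-15). Ccnb1 kept 64.2% of the GV level (adjusted p 0.00423), which did not pass with TMM factors on the ERCC counts (81.2%, adjusted p 0.163) or without MII eggs 1 to 5 (77.9%, adjusted p 0.244). In the list of CDK1, cyclins and their switches 9 of 20 rose (45%, against 22.7% of all genes) and 7 fell (35%, near the 35.8% of all genes), and under ERCC scaling 17 were lower with 28.6% left. Wee2, the oocyte kinase that inhibits CDK1, rose by 0.56 (SE 0.09, edgeR adjusted p 3.2e-07). Among MAP kinase genes Mapk3 (ERK1) fell by 3.00 (SE 0.35, edgeR adjusted p 1.15e-11), from 238 to 281 CPM to 20.2 to 53.7, and Map2k1 (MEK1), which phosphorylates it, rose by 1.23 (SE 0.11, edgeR adjusted p 7.44e-16). In the anaphase-promoting complex and spindle checkpoint list 13 of 30 rose and 15 fell, and under ERCC scaling 27 were lower with 24.1% left, near the 23% of all genes. Fbxo43 (EMI2), which holds the MII arrest, rose by 1.29 (SE 0.10, edgeR adjusted p 1.78e-19) and the activator Cdc20 by 1.26 (SE 0.17, edgeR adjusted p 1.03e-09), while the catalytic subunit Anapc11 fell by 2.29 (SE 0.24, edgeR adjusted p 1.82e-13). Mad2l1bp, which disarms the checkpoint, rose by 2.23 (SE 0.23, edgeR adjusted p 2.25e-13), and its target Mad2l1 by 1.46 (picked after its values were seen). Among genes of the cAMP arrest 6 of 13 rose (46.2%, against 22.7% of all genes) and 1 fell (7.69%, against 35.8%). Under ERCC scaling all 13 were lower, against 87.5% of all genes, with 36.8% left. Prkar2a rose by 1.11 (SE 0.14, edgeR adjusted p 2.98e-10).

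Among lists for nuclear functions, spliceosome genes fell in 34 of 83 cases (41.0%, against 35.8% of all genes) and rose in 25 (30.1%, against 22.7%). Their median log2 fold change was -0.16. Under ERCC scaling 82 of the 83 were lower with 24.2% left, close to the 23% of all genes. Snrpd2 fell by 6.18 (SE 0.48, edgeR adjusted p 1.56e-18) to 0.388%. RNA polymerase II and its initiation factors fell in 23 of 55 (41.8%) and rose in 21 (38.2%). Under ERCC scaling 54 were lower with 25.2% left, again close to all genes. Polr2i fell by 3.92 (SE 0.18, edgeR adjusted p 1.53e-30) while Taf13 rose by 1.74 (SE 0.15, edgeR adjusted p 1.7e-16). Polycomb genes rose in 15 of 30 and fell in 4 (median 0.41), and under ERCC scaling all 30 were lower (36.9% left). Those that rose included Ezh2, the H3K27 methyltransferase (1.37, SE 0.12, edgeR adjusted p 3.57e-16). Genes for H3K4, H3K9 and H3K36 methylation rose in 15 of 30 and fell in 6, and under ERCC scaling 28 were lower with 32.9% left. Dpy30 rose by 1.80 (SE 0.15, edgeR adjusted p 1.91e-17) while Suv39h1 fell by 2.47 (SE 0.19, edgeR adjusted p 1.29e-18). Of 68 genes in the list of replication-dependent histones 27 passed the filter, and 12 fell (44.4%) and 2 rose (7.41%). Messages of this kind normally lack poly(A) tails, but the list also holds H1f0, a replacement linker histone with a polyadenylated message, which was 1 of the 2 that rose (61.6 CPM in GV and 92.4 in MII, means, log2 fold change 0.59, edgeR adjusted p 0.000229). H2afx, a histone variant of DNA damage signalling, fell by 3.33 (SE 0.27, edgeR adjusted p 7.33e-18), and Gmnn, geminin, which blocks replication licensing, rose by 1.72 (SE 0.14, edgeR adjusted p 2.74e-18). Zfp zinc finger genes, the largest list, fell in 84 of 332 cases and rose in 68 (median -0.21, 23.3% left). Their median lay close to that of all genes, while 25.3% of them were lower against 35.8% of all genes, and 20.5% kept under 12.5% against 30.2%.

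Some of the most abundant messages of the GV oocyte were among those that kept under 12.5%. Besides Khdc3, Zp2, Zp3, Ooep, Tle6, Ldhb and Dnmt1, they included Cpsf4l, which stood at 999.7, 1225 and 2287 CPM in GV and at 68.6, 77.9 and 97.3 in MII. Cpsf4l fell by 4.06 (SE 0.18, edgeR adjusted p 1.62e-30) with 1.66% left. E330017A01Rik went from 1058 to 1847 CPM to 36.5 to 171 and fell by 4.24 (SE 0.45, edgeR adjusted p 3.21e-13), with log2 fold changes of -4.98 without MII eggs 6 to 8 and -3.5 without eggs 1 to 5. Uchl1, a deubiquitinating enzyme, fell by 2.03 with 6.82% left. Elobl fell by 1.89 (SE 0.25, edgeR adjusted p 1.1e-09) with 7.48% left. Each of these genes lay lower in every egg than in every GV oocyte. Ldhb kept 9.49% over all eggs and 14.3% without MII eggs 1 to 5, so its place under 12.5% rested on those eggs. Dnmt1, nearest to that limit with 11.9% left, also lay above it without eggs 1 to 5 and with TMM factors on the ERCC counts.

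At the other end, 58 genes were higher in MII even per ERCC count: 28 protein-coding genes, 8 long noncoding RNA genes, 9 pseudogenes, 1 transcribed pseudogene and 12 with no biotype. Of these 25 had a mean of at least 10 CPM in MII, and for 17 of the 58 the groups did not overlap per ERCC count; these are the same 17 genes (0.0978%) that did not overlap in this direction among all genes tested. The count of 58 depends on the setting: it was 101 with TMM factors on the ERCC counts, 154 with no filter on low counts and 39 without MII eggs 1 to 5. In the fit of only the 16 control libraries, where 13459 genes were tested, it was 41, and 33 when counts were also summed within each stage. Cdc5l, a splicing factor, stood at 0.108 to 4.07 CPM in GV, 0.727 to 8.53 in GV3h and 176 to 220 in MII, with every egg high. Its log2 fold change was 6.44 (SE 0.77, edgeR adjusted p 2.68e-11) under library scaling and 7.29 without GV oocytes 2, 3 and 6. Manba, lysosomal beta-mannosidase, stood at 0 to 1.41 CPM in GV and 195 to 294 in MII (8.43, SE 1.16, edgeR adjusted p 2.24e-09). In GV3h Manba stood at 93.1 to 116 CPM in oocytes 1 to 4 and at 0 to 1.04 in oocytes 5 to 8. Gm4350 was split within MII, at 42.5 to 52.4 CPM in eggs 1 to 5 and 0 to 1.07 in eggs 6 to 8. The log2 fold change of Gm4350, 7.0 (edgeR adjusted p 4.84e-06), therefore rested on eggs 1 to 5, and without them it was 1.35 (adjusted p 0.509), with -0.45 (adjusted p 0.785) under ERCC scaling. Slc39a8, a zinc transporter, stood at 0 to 0.2 CPM in GV and 0.777 to 153 in MII, and its log2 fold change of 8.94 (edgeR adjusted p 9.9e-09) was 7.59 without MII egg 4 and 8.33 without eggs 1 to 5. What sets these levels was not tested, and folds from levels near 0 are of low precision. Rassf4 (5.77), Grb7 (5.24), Slc16a5 (4.97), Gm18860 (4.30), Pitpnc1 (4.19) and Otogl (4.18) followed, with library-scaled log2 fold changes in brackets. They completed the 10 highest ERCC-scaled folds among the 25 genes with a mean of at least 10 CPM in MII. Without GV oocyte 1 Gm18860 was at 5.14 and Grb7 at 5.91, without MII eggs 1 to 5 Rassf4 was at 5.16 and Pitpnc1 at 3.5, and without GV oocytes 2, 3 and 6 Pitpnc1 was at 4.82. Of these, under ERCC scaling, Pitpnc1 lost its call without MII egg 1 (adjusted p 0.0621) and without eggs 1 to 5 (adjusted p 0.234), and Otogl without eggs 1 to 5 (adjusted p 0.101). Omt2b and Omt2a, oocyte genes picked after their values were seen, were abundant at both stages and rose by 2.36 and 2.28, with 142% and 135% of the GV level per ERCC count. They are close copies, so reads can be shared between them.

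**Figure D5:**
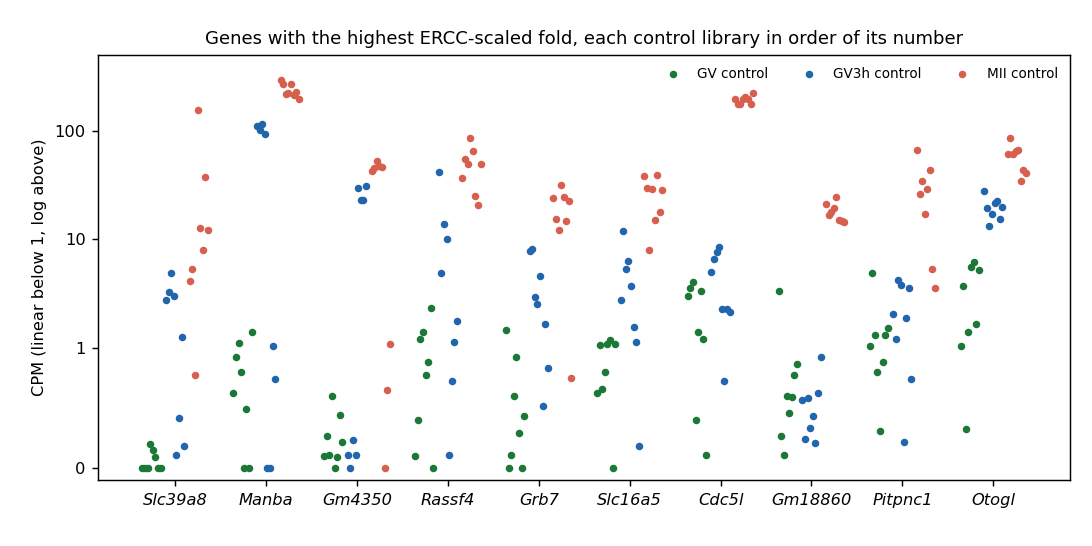
CPM (y axis, linear below 1 and log above) in each of 8 GV (green), 8 GV3h (blue) and 8 MII (red) control libraries. The 10 genes have the highest ERCC-scaled fold among those higher under ERCC scaling with a mean of at least 10 CPM in MII. Manba is split in GV3h and Gm4350 in GV3h and MII, while Cdc5l is high in all 8 eggs.

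Of the 121 genes named by rule, 46 overlap another RefSeq gene. Many of the genes described do, and examples are that Gdf9 overlaps Uqcrq, Cnot7 overlaps Vps37a, Cdc20 overlaps Elovl1, Tle6 overlaps Tle2, Psmd1 overlaps Htr2b, Tpi1 overlaps Spsb2, Btg4 overlaps Hoatz, Polr2i overlaps Tbcb and Ovol3, and Uchl1 overlaps Uchl1os. Of the genes outside the rule, Stag3 overlaps Gal3st4 and Dis3 overlaps Pibf1. Whether the counting used strand is not given in the sources used here, so reads of such pairs cannot be told apart.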

How the data were processed

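Each oocyte was lysed by itself and received diluted ERCC RNA, and its poly(A) RNA was caught with oligo-dT beads and amplified as cDNA, per the labels' protocols. The authors deposited whole-number read counts per gene, 55573 gene IDs and 92 ERCC RNAs per library, with 0 rows that name no gene. The submitters' processing notes name cutadapt 2.5, STAR 2.7.2a, SAMtools 1.9, HTSeq 0.9.1, DESeq2 1.24.0 and the mm10 build. The annotation release, the use of strand and the handling of reads with several matches are not given in the sources used here. Groups were taken from titles and stage labels.

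Counts of all 71 poly(A) libraries (6 groups, control and Dis3 knockout) were fitted together with edgeR 4.0.16 in R 4.3.3 (filterByExpr, glmQLFit, glmQLFTest, Benjamini-Hochberg adjustment over 17389 genes, threshold 0.05), with TMM factors or with ERCC sums as library sizes, so that all groups share an estimate of the spread. The contrast was 8 MII against 8 GV controls. CPM of single genes use TMM factors, and summed CPM of lists divide by all gene counts. The percent left is 100 times 2 to the ERCC-scaled log2 fold change. The fit was tested on simulated data. Ratios of gene to ERCC counts were compared by an exact permutation test.

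Named genes were, per list, the largest fall and largest rise among members called with at least 10 CPM in a stage and no overlap. Also named were a fixed set of genes and the 10 largest ERCC-scaled folds among genes higher there with at least 10 CPM in MII. The 10 most abundant GV messages that kept under 12.5% completed them. Rec8, in the fixed set, did not pass the filter. The comparison, lists and rule were chosen with earlier results of these data known. Symbols and start sites were matched to RefSeq tables (GRCm38.p6); 99.7% of gene IDs had a symbol. Alternatives were the 16 control libraries alone, RLE factors, TMM factors on the ERCC counts, DESeq2 1.42.0, no filter, a replicate block, summed counts and leaving out libraries. Counting error was not modelled apart from the spread between libraries.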

Additional observations from a re-analysis of the deposited data

Results flagged for a closer look

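Of 114 sets of 8 libraries examined by Dixon's test, 10 held a library apart from the others (a gap to the next library that is large against the range), and chance alone gives about 1 in 20. GV oocyte 1 was highest for Dazl at 1250 CPM (next 792), for Mos at 2400 CPM (next 1790) and for Cpsf4l at 2290 CPM (next 1570). GV oocyte 4 was highest for Tpi1 at 143 CPM (next 118), and MII egg 3 at 26.9 CPM (next 9.83). MII egg 8 was highest for Khdc3 at 234 CPM (next 104), for Nlrp5 at 1520 CPM (next 1060), for Ldhb at 2200 CPM (next 1320) and for the summed cohesin list at 5220 CPM (next 4400). MII egg 4 stood at 153 CPM for Slc39a8 (next 37.3). GV oocyte 1 and MII egg 8 also had the lowest mean correlation with their own groups. What sets these libraries apart was not tested.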

How the results depend on the processing

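The total number of genes called stayed within 1.5 times of the main total under each scaling in the settings run. The number called higher under ERCC scaling, 58, did not: it was 101 with TMM factors on the ERCC counts, 154 with no filter and 33 with summed counts in the 16 control libraries, where it was 41 unsummed, and the cause was not tested. It was 39 without MII eggs 1 to 5. Under library scaling 7765 (counts summed over numbers 1 to 4 and 5 to 8) to 11565 genes (no filter) were called, and under ERCC scaling 12383 to 20252. Leaving out each library in turn gave 9841 to 10103 and 15012 to 15332 called genes and a log2 difference of gene per ERCC counts of -1.62 to -1.54. The sets of libraries were chosen after seeing the data: without MII eggs 6 to 8 the counts were 9673 and 14632, without eggs 1 to 5 they were 8605 and 14162, and without GV oocytes 2, 3 and 6 they were 9027 and 13995. Replicate numbers did not pair the samples: deviations of same-numbered libraries correlated at -0.037 to 0.124, and 2 of 8 correlated best with their own number. With a replicate block, in a fit of the 16 control libraries, 8541 and 12504 genes were called, against 8642 and 12591 without it. Counting only values that passed in the main fits, 2 values of named genes changed sign, both without MII eggs 1 to 5: Ndufa4 (0.32, library scaling) and Gm4350 (-0.45, ERCC scaling). The cause was not tested. Under library scaling 13 of 42 list medians changed sign in some setting, all with a main median of 0.25 or less in size. With ERCC scaling none did. Depth limits genes near 0 CPM in eggs, where the percent left is of low precision.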
